A study of Mus musculus with 18 samples.

Results

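The genes described here encode the matrix metalloproteinases (MMPs), the ADAMTS proteases with their ADAMTS-like relatives, and the tissue inhibitors of metalloproteinases (TIMPs). They were chosen by name alone: every gene of the deposited mRNA count matrix whose symbol begins with Mmp and a digit, with Adamts, or with Timp and a digit. The rule found 45 of the 20275 genes in the matrix, made up of 17 MMP, 19 ADAMTS, 5 ADAMTS-like and 4 TIMP genes. Of 51 genes in the annotation that match the rule, these 45 were in the matrix.

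Droplet-based scRNA-seq with antibody tags (CITE-Seq) was performed on bone marrow (BM) of C57B6/J mice at E16.5, E18.5, postnatal day 0 (P0) and in the adult. Hematopoietic progenitors (HPs) were sorted as CD45+ Lineage- Kit+ cells in 5 libraries (2 from E16.5 and 1 from each other stage), and stroma as CD45- Ter119- cells in 4 libraries (1 a stage). No group carried a mutation or received a treatment, each library came from a pool of mice, and fetal and P0 BM came from the whole skeleton without the head whereas adult BM came from tibias, femurs, pelvic bones and spines. Stroma was released by collagenase from bone chips mixed with some of the crushed marrow, and red cells were lysed in adult but not in fetal preparations. Apart from the E16.5 HP pair each stage and compartment was 1 library, and no source says whether that pair came from separate pools, so p-values measure only the spread between these libraries.

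MMPs and ADAMTS proteases are zinc-dependent enzymes that cut collagens, proteoglycans and other proteins of the extracellular matrix, and TIMPs bind and block them. In bone, Mmp13 made by hypertrophic chondrocytes and osteoblasts and Mmp9 made by osteoclasts take part in replacing cartilage with bone and marrow, and neutrophils store Mmp8 and Mmp9 in their granules. ADAMTS-like proteins share the accessory domains of ADAMTS proteases but lack the protease domain.

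Of the 45 genes, 5 lie together on chromosome 9 within 309 kb, among them Mmp13 (chr9:7272514-7283331), Mmp3 (chr9:7445822-7455975) and Mmp8 (chr9:7558456-7568485, GRCm38). The leading clusters of these 3 neighbours were different, though Mmp13 and Mmp3 shared adult Osteo among their highest, so the 250 bases before the RefSeq start of each (GRCm38.p6, plus strand) are shown, at chr9:7272264-7272513, chr9:7445572-7445821 and chr9:7558179-7558428. Capitals mark matches on either strand to an AP-1 motif, TGANTCA, or a RUNX motif, TGTGGT.
Mmp13: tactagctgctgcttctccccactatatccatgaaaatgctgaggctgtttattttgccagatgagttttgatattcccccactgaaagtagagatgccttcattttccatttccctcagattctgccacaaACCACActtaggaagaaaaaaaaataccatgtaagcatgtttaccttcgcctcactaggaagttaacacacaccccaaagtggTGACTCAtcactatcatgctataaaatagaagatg
Mmp3: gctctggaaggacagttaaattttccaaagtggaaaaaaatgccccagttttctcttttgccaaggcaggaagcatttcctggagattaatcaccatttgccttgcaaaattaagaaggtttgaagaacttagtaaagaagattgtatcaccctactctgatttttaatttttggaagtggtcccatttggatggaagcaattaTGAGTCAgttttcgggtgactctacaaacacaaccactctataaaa
Mmp8: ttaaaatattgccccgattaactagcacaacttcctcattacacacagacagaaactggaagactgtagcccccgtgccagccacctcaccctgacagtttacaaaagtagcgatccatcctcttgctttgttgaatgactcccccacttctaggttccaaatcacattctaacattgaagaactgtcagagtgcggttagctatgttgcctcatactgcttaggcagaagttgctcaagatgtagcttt
The Mmp13 window held 1 AP-1 match (TGACTCA) and 1 RUNX match on the other strand (ACCACA), the Mmp3 window held 1 AP-1 match (TGAGTCA), and the Mmp8 window held neither. No match overlapped another. The AP-1 letters occurred in 6.87% of 27025 promoters of this length and in 2 of the 30 members found in the promoter table (6.67%), Mmp3 and Mmp13. The RUNX letters occurred in 14.2% of promoters and in 4 of those 30 members (13.3%).

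The libraries held between 560 and 14084 cells and between 13974733 and 194892476 unique molecular identifiers (UMIs). Levels are given as UMIs of a gene per 1000000 UMIs (CPM) after summing the cells of a library or of a cluster, with exact Poisson 95% intervals in parentheses that cover counting error only. The 45 genes took 0.101% of UMIs in E16.5 stroma, 0.129% in E18.5 stroma, 0.144% in P0 stroma and 0.323% in adult stroma, against 0.00425% to 0.0142% in HPs. In the deposited cells, 6 fibroblast genes summed to between 3403 and 16571 CPM in stroma and to between 2.06 and 3.73 CPM in HPs. The sum of 8 neutrophil genes was between 0.96 and 6.07 CPM in stroma, lowest at E18.5 with Ltf and Ngp at 0. In HPs it was between 827 and 44639 CPM. Per the study's methods, contaminating blood cells had been taken out of the stromal data it plotted, and the deposited stromal cells were fewer than those it counts at each stage, so the low stromal level of blood cell genes, Mmp8 and Mmp9 among them, cannot be told apart from that step. Of 54831 distinct barcodes, 1102 occurred in more than 1 library. Small HP clusters that were led by stromal genes (Stroma in the adult, Mast4 at P0 and UD2 in each E16.5 library) held 0.542% to 10.9% of the member UMIs of their libraries. Without these clusters 35 members were called higher in stroma and 1 in HPs, as with all cells, and without the shared barcodes 34 and 1, with Adamts9 lost (edgeR adjusted p = 0.0577).

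To ask which compartment carries these genes, the summed libraries were compared with edgeR's quasi-likelihood test, with stage as a covariate. Of 43 members that passed the filter on low counts, 35 were higher in stroma (81.4%), where 32% of all 18407 genes tested were, and 1 was higher in HPs, where 25.8% of all genes were. All 18 ADAMTS genes tested, all 5 ADAMTS-like genes and all 4 TIMP genes were higher in stroma, and so were 8 of 16 MMP genes. Mmp8 was the gene higher in HPs. Mmp9, Mmp12, Mmp17, Mmp19, Mmp25, Mmp27 and Mmp28 did not pass the threshold, and Mmp24 and Adamts13 were too low to test. The median log2 difference, stroma over HPs, was 4.65 over the members and 0.05 over all genes. The E16.5 HP libraries, the only pair of 1 stage and gate, lay apart for some members: Mmp9 was at 9.52 and 1.19 CPM and Mmp14 at 7.94 and 1.2 CPM. The pair held 560 and 4752 cells and lay apart in several marker sums. Over it 8 monocyte and macrophage genes summed to 2251 and 257 CPM, 6 T cell genes to 81.6 and 2288 CPM and 5 megakaryocyte genes to 584 and 56.9 CPM, none at 0. The part of these differences in the result was not tested. In the first of these libraries 64 of the 133 Mmp9 UMIs were in 1 UD2 cell, without which Mmp9 was at 4.95 CPM. Every stromal library lay above every HP library for 33 of the 43 members, as it did for 28.7% of all genes tested, and the reverse held for 1 member, as it did for 23.2% of all genes. In summed libraries fewer cells of a type and less RNA per cell cannot be told apart.

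**Figure D1:**
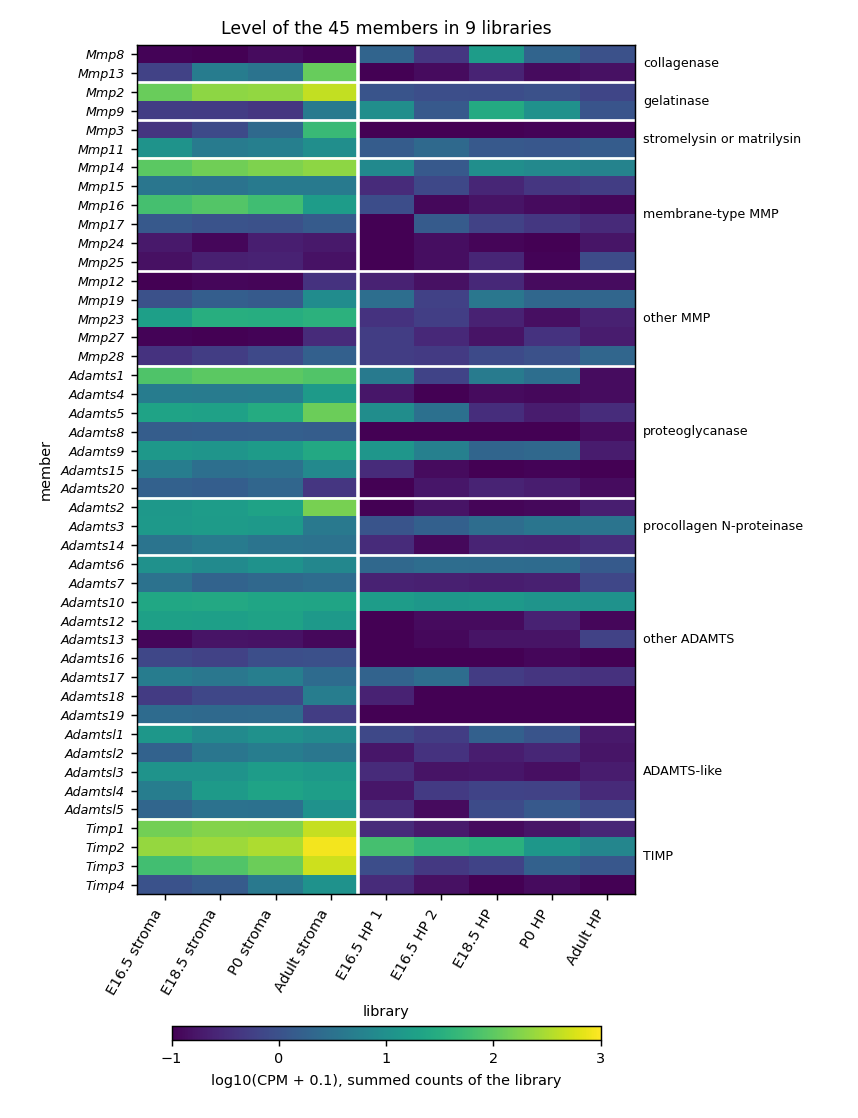
Level of each of the 45 genes (rows, grouped by role) in each of the 9 libraries (columns), as log10 of CPM plus 0.1 by colour. The 4 stromal columns are brighter than the 5 HP columns for most rows, and Mmp8 runs the other way.

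**Figure D2:**
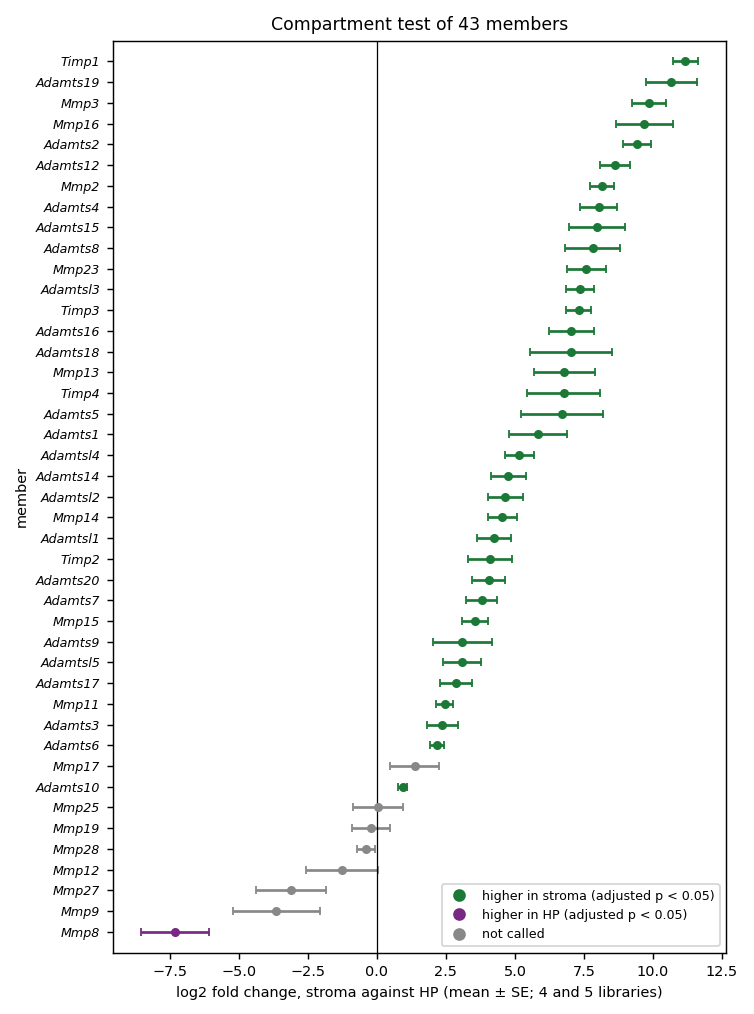
Log2 difference of stroma over HPs for each of the 43 members tested, with bars for 1 standard error and colour for the call at an adjusted p of 0.05. The 35 genes higher in stroma lie to the right of 0 and Mmp8, at -7.32, lies to the left.

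The inhibitors were all higher in stroma, with their highest level in the adult stromal library. Timp1 (chrX:20870166-20874735), a soluble inhibitor known to bind pro-Mmp9, was at 141, 184, 176 and 439 CPM in E16.5, E18.5, P0 and adult stroma, and between 0.0308 and 0.215 CPM in HPs. Its log2 difference was 11.17 ± 0.46 (standard error, 4 stromal and 5 HP libraries, edgeR adjusted p = 1.27e-05). No stromal library came near an HP library. Timp3 (chr10:86300372-86349506), which binds to the matrix, was at 61.3, 82.6, 127 and 496 CPM in stroma and between 0.365 and 1.66 CPM in HPs, a log2 difference of 7.31 ± 0.45 (edgeR adjusted p = 3.8e-05). Timp4 (chr6:115241892-115252205) was at 0.932, 1.32, 4.1 and 10.9 CPM in stroma, and it had between 0 and 5 UMIs in an HP library. Its log2 difference was 6.76 ± 1.32 (edgeR adjusted p = 0.0046).

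Timp2 (chr11:118301069-118355740), which blocks Mmp2 and also helps Mmp14 activate it, was the inhibitor with a sizeable level in HPs. It was at 229, 263, 324 and 860 CPM in stroma, and at 65.0 and 43.2 CPM in E16.5 HPs, and E18.5, P0 and adult HPs were at 34.0, 12.9 and 6.79 CPM. The compartments did not overlap, and the log2 difference was 4.09 ± 0.81 (edgeR adjusted p = 0.00486). The order over stages thus ran upward in stroma and downward in HPs, with 1 library at most stages and no test of that difference. Of the TIMP counts in HP libraries, 83.9% to 98.8% were Timp2. In the first E16.5 HP library 88.9% of its Timp2 UMIs were in the cluster coded Mono/Mast, at 209 CPM (195–224). In the second Mono/Mast was at 186 CPM (173–201) but held 16.7% of them, and the T cell clusters TCell1, TCell2 and TCell3, at 76.7, 66.6 and 58.3 CPM, each held more. At E18.5 Timp2 reached 289 CPM (264–315) in Mono1ii, a cluster led by the dendritic cell genes Clec9a and Xcr1, and 279 CPM (241–321) in Mono2.

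Within stroma, each inhibitor was highest in a different cluster of the adult. Timp1 was highest in F11, at 1507 CPM, followed by C10, at 880 CPM (865–896), a cluster with the hypertrophic chondrocyte genes Ihh and Panx3 among its leading genes. A Timp1 UMI was found in 77.5% of F11 cells and 96.9% of C10 cells, against 9.25% of cells coded AECs, where median depths were 10066, 36462 and 4520.5 UMIs per cell. When every cell was thinned to 1000 UMIs these shares were 46.2%, 46.8% and 1.03%, and the intervals of F11 and C10 overlapped. Timp2 was highest in F12, at 2299 CPM, and F8, at 1802 CPM. Timp3 was highest in F10, at 1129 CPM, and next in SECs, coded as sinusoidal endothelial cells, at 1085 CPM. The intervals of those 2 clusters, 1109–1149 and 1038–1134, overlapped. Timp4 was highest in the clusters AECs (187 CPM, 171–206) and P4 (165 CPM, 146–186), and then in the ECs cluster of P0 stroma (111 CPM, 98.1–125).

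**Figure D3:**
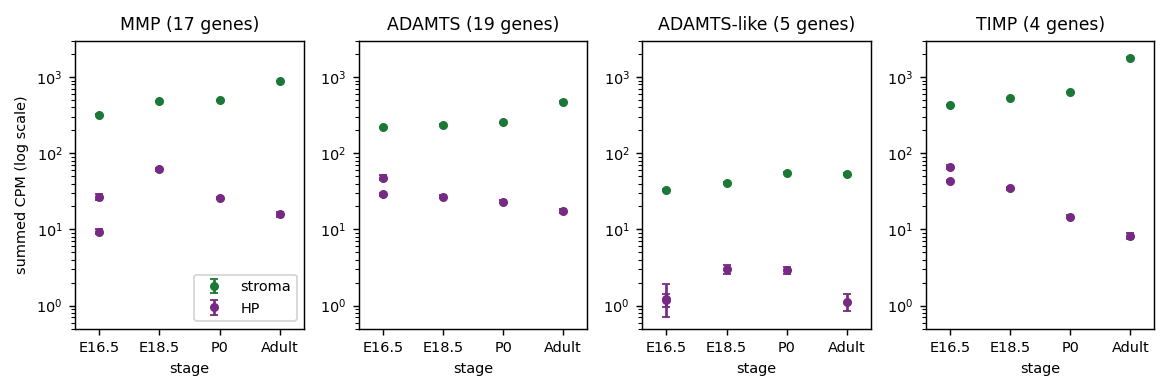
Summed CPM of each family (MMP, ADAMTS, ADAMTS-like, TIMP) by stage in stroma and in HPs, on a log axis, with Poisson 95% intervals. In stroma the TIMP sum runs from 433 at E16.5 to 1805 CPM in the adult, and in HPs it runs from 66.3 and 43.7 to 8.09 CPM.

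Summed over its genes, each family was lower at E16.5 than in the adult in stroma. The MMP sum was 321, 478, 495 and 895 CPM from E16.5 to the adult and the ADAMTS sum was 222, 237, 255 and 474 CPM. A few genes carried these sums. Mmp2 made up 48.8% of the adult MMP counts. Of the ADAMTS counts Adamts1 made up 38.1% at P0 and Adamts2 32.3% in the adult. From P0 to the adult Adamts2 went from 19.8 to 153 CPM and Adamts5 from 28.7 to 127 CPM, but Adamts1 from 97.1 to 83.4 CPM. The ADAMTS-like sum was 32.7, 40.9, 55.5 and 53.9 CPM, with the last pair of intervals overlapping (54.4–56.5 and 52.4–55.4). In HPs the MMP sum was highest at E18.5, at 61.2 CPM, and 45.8% of its counts were Mmp9.

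Of the gelatinases, Mmp2 was higher in stroma and Mmp9 did not pass the test. Mmp2 (chr8:92827291-92853420), which cuts denatured collagen and type IV collagen, was at 120, 208, 222 and 437 CPM in E16.5, E18.5, P0 and adult stroma and at 1.00, 0.814, 0.771, 0.871 and 0.591 CPM in the HP libraries. The groups lay far apart, with a log2 difference of 8.15 ± 0.43 (edgeR adjusted p = 2.32e-05). In the adult it was highest in F11 (1905 CPM), F8 (1137 CPM) and Osteo (1109 CPM).

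Mmp9 (chr2:164940780-164955850) was at 0.428, 0.409, 0.334 and 4.26 CPM in E16.5, E18.5, P0 and adult stroma, and at 9.52, 1.19, 28.0, 10.4 and 1.01 CPM in the HP libraries. The adult stromal library lay above the second E16.5 and the adult HP libraries, and the log2 difference of -3.64 ± 1.57 did not pass (edgeR adjusted p = 0.0837). It passed without the adult stromal library (-4.56, adjusted p = 0.00564) and without the adult HP library (-4.59, adjusted p = 0.0069). Of the 391 Mmp9 UMIs of adult stroma, 332 were in 1 cell of the cluster CARs, coded as Cxcl12-abundant reticular cells. Without that cell the library was at 0.642 CPM.

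From E18.5 on, most Mmp9 in HPs came from clusters with osteoclast or neutrophil genes. At E18.5 it reached 1120 CPM in Neu2, a neutrophil cluster of 71 cells led by Cd177 and Ly6g, and 1005 CPM in DC2, a cluster of 43 cells that held 64.1% of the library's Mmp9. Per the study's methods, Lineage- cells were low in Gr-1, which it also used to mark myeloid blood cells. HP libraries therefore need not hold neutrophils in the proportion of the marrow. The code DC2 went against its leading genes, Ctsk, Atp6v0d2, Dcstamp and Ocstamp, which are markers of osteoclasts. A Mmp9 UMI was found in 91.5% of Neu2 cells and 83.7% of DC2 cells, against 1.32% of cells in Bcell1 of the same library, with median depths of 4366, 26272 and 22806 UMIs. At 1000 UMIs per cell the shares were 64.8%, 38.1% and 0%. At P0, Mono1 held 87.3% of the library's Mmp9, at 349 CPM (329–370). In it, 53 of 225 cells had a Mmp9 UMI, and over those cells 6 other osteoclast genes summed to 3944 CPM, against 151 CPM over the remaining cells of Mono1. The cells with a UMI were deeper, at a median of 22566 UMIs against 8054.5, and were picked by the gene itself, so this is a description.

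The collagenases also split. Mmp8 (neutrophil collagenase) was at 1.86, 0.323, 16.0, 1.83 and 0.878 CPM in the HP libraries from E16.5 to the adult, and between 0 and 0.0308 CPM in stroma, where it had at most 6 UMIs a library. It was higher in HPs by the test, with a log2 difference of -7.32 ± 1.24 (edgeR adjusted p = 0.00257), and no library overlapped. In E18.5 HPs 93.6% of it was in the 71 cells of Neu2, at 2388 CPM, and 91.5% of those cells had a UMI, against 0.658% of Bcell1. Adult HPs were at 0.878 CPM, while the sum of 8 neutrophil genes was highest there (44639 CPM). That list holds Elane, Mpo and Prtn3 beside Ltf, Camp, Ngp, S100a8 and S100a9. Whether its sum follows the cells that carry Mmp8 was not tested. The Lineage- gate on Gr-1 given above applies to these cells as well, and its part was not tested. In the adult 51.9% of the 52 Mmp8 UMIs were in Mono4.

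Mmp13 (collagenase-3) was near 0 in HPs, between 0 and 0.154 CPM, and at 0.522, 4.69, 3.27 and 118 CPM in E16.5, E18.5, P0 and adult stroma. The log2 difference was 6.78 ± 1.11 (edgeR adjusted p = 0.00218). Adult stroma stood far above the other 3 stromal libraries, but every stromal library lay above every HP library. Of the 527 Mmp13 UMIs at E18.5, 451 were in a single cell of cluster F2, without which that library was at 0.676 CPM. In the adult the gene was in CARs, at 1661 CPM (1616–1708), and in Osteo, an osteoblast cluster led by Bglap and Bglap2, at 826 CPM (802–850). CARs held 46.1% and Osteo 42.8% of the adult Mmp13 UMIs.

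Most Mmp13 UMIs came from a small share of the cells in each of those clusters. A UMI was seen in 52.4% of 359 CARs and in 25.5% of 361 Osteo cells, against 0.5% of 400 AECs, with median depths of 7185, 13695 and 4520.5 UMIs. At 1000 UMIs per cell the shares were 28.4%, 16.6% and 0%. The 36 CARs with most Mmp13 held 85.7% of the UMIs of that cluster, and the 37 such Osteo cells held 89.7%. In CARs, 9 osteoblast-lineage genes summed to 23651 CPM over the cells with a Mmp13 UMI and to 8338 CPM over those without, whereas 6 CAR genes summed to 21957 and 29578 CPM. Of the osteoblast-lineage sum, Spp1 alone made up 14114 and 2314 CPM. In Osteo the order was the other way, with osteoblast-lineage genes at 45530 CPM in cells with a Mmp13 UMI and 103487 CPM in cells without. Osteo cells with a Mmp13 UMI also had more Mmp14 (1520 against 370 CPM) and Mmp3 (462 against 90.3 CPM). In the F2 clusters the same 9 genes were at 15456 CPM in cells with a Mmp13 UMI and 13505 CPM in those without at E18.5, and at 13577 and 14756 CPM at P0. Of these sums Spp1 alone made up 4498 and 77.2 CPM at E18.5, more than the gap between them, and 2825 and 473 CPM at P0. The F2 cells with and without a Mmp13 UMI numbered 19 and 677 at E18.5, at median depths of 16392 and 13030 UMIs. At P0 they numbered 56 and 888, at 14403 and 12549 UMIs. In F2, 6 hypertrophic chondrocyte genes summed to 985 against 130 CPM at E18.5 and to 898 against 153 CPM at P0. Most of the sums with a UMI was Ibsp, which is on the osteoblast-lineage list too. Ibsp was at 758 against 12.7 CPM at E18.5 and at 713 against 38.1 CPM at P0. The same 6 genes were at 5548 against 4764 CPM in adult CARs and ran the other way in adult Osteo, at 9437 against 16222 CPM. These cells were picked by the gene within 1 library each, so the contrasts are descriptions, with no test.

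**Figure D4:**
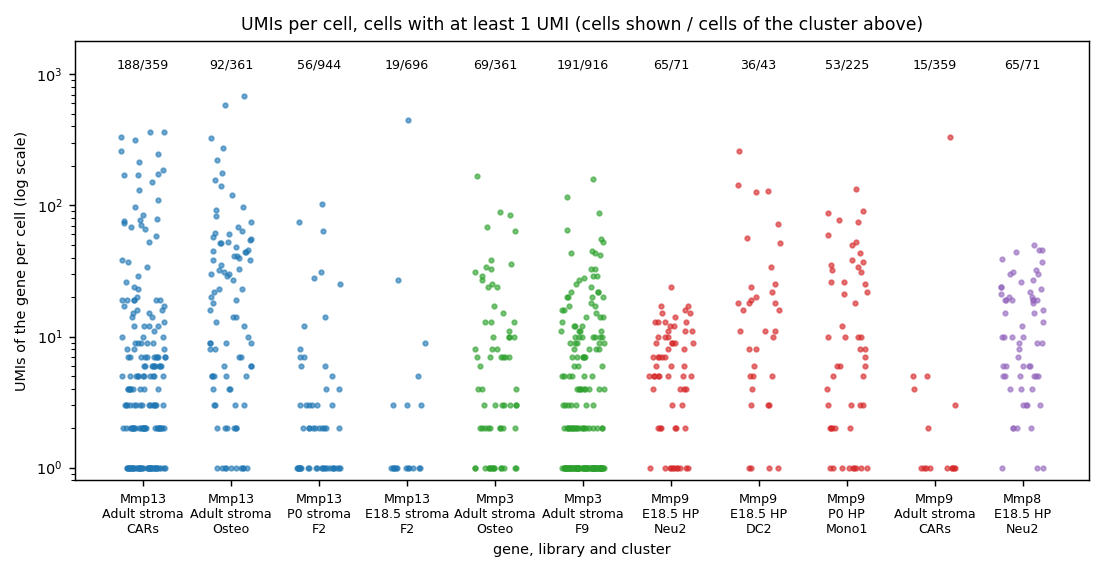
UMIs per cell of Mmp13, Mmp3, Mmp9 and Mmp8 on a log axis, in clusters that held much of each; each point is a cell with at least 1 UMI, spread sideways for display, and the numbers above give those cells over all cells of the cluster. For Mmp13 in adult CARs the 36 highest cells hold 85.7% of the UMIs, and in E18.5 F2 a single cell holds 451 of 513.

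The stromelysins were stromal. Mmp3 was at 0.308, 0.685, 2.21 and 50.6 CPM in E16.5, E18.5, P0 and adult stroma. All HP libraries together held 2 UMIs, a pooled ratio of 1817-fold (503–15011) in which adult stroma gave 4648 of the 5192 stromal UMIs. The test placed Mmp3 higher in stroma, with a log2 difference of 9.84 ± 0.62 (edgeR adjusted p = 3.98e-05), and of 8.14 without adult stroma. In the adult it was highest in Osteo, at 184 CPM (173–196), and in F9, at 138 CPM (132–145). A UMI was seen in 19.1% of Osteo and 20.9% of F9 cells, against 0.75% of AECs, with median depths of 13695, 12105 and 4520.5 UMIs. At 1000 UMIs per cell the shares were 6.93%, 7.00% and 0%. In cells picked for a Mmp3 UMI, the 9 osteoblast-lineage genes summed to 28962 CPM in Osteo, against 102637 CPM in the others, and to 11635 against 16109 CPM in F9, a description with no test. Mmp11 (chr10:75923222-75936496), a stromelysin that does not cut most matrix proteins, was at 11.4, 4.47, 5.3 and 9.26 CPM in stroma and between 1.1 and 2.23 CPM in HPs, a log2 difference of 2.45 ± 0.30 (edgeR adjusted p = 0.000614). It ran high in 1 cluster: F6 of E16.5 stroma, led by Dkk1 and Cxcl14, was at 292 CPM (270–315) and held 49.9% of the library's Mmp11, while the next cluster was at 66.7 CPM.

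Among the membrane-type MMPs, which act at the cell surface, 3 were higher in stroma, 2 did not pass and Mmp24 was not tested. Mmp14 (chr14:54431612-54445364), the activator of pro-Mmp2, was at 99.2, 136, 166 and 207 CPM in stroma and at 7.94, 1.2, 9.31, 7.55 and 6.1 CPM in HPs, a log2 difference of 4.54 ± 0.53 (edgeR adjusted p = 0.000509). It was highest in adult Osteo (662 CPM) and F11 (501 CPM). In E18.5 HPs 46% of Mmp14 was in DC2, the same cluster that held most Mmp9, at 240 CPM. Mmp16 (chr4:17852893-18119145) was at 65.9, 86.0, 58.8 and 16.1 CPM in stroma and between 0.0169 and 0.787 CPM in HPs, a log2 difference of 9.69 ± 1.04 (edgeR adjusted p = 0.000367). The difference ran from 8.94 to 11.33 over the alternatives. It moved by over 1.5-fold, for example, without the first E16.5 HP library or without the HP clusters led by stromal genes. The leading clusters of Mmp16 were C7 and C1ii at E18.5 and C3 at E16.5, at 136, 131 and 124 CPM. Its lowest stromal level was in the adult.

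Mmp15 (chr8:95352268-95375080) was at 3.58, 3.25, 4.2 and 4.43 CPM in stroma, a log2 difference of 3.55 ± 0.47 (edgeR adjusted p = 0.000895). Schwann cell clusters led at each stage that had one, at 124 CPM at E16.5, 173 at E18.5 and 133 at P0, and adult AECs were at 83.1 CPM. Mmp17, which did not pass, was also highest in Schwann cells (45.7 CPM, 36.8–56.2, at E16.5). Mmp25 was seen in neutrophil clusters, where all 11 UMIs of the E18.5 HP library were in Neu2 and all 44 of adult HPs in Neu3. Of the remaining MMPs, Mmp23 (chr4:155650655-155653384) was at 17.7, 32.1, 31.1 and 37.1 CPM in stroma and at most 0.449 CPM in HPs, a log2 difference of 7.59 ± 0.71 (edgeR adjusted p = 0.000205), with adult CARs at 199 CPM (183–215). Mmp12, Mmp19, Mmp27 and Mmp28 were all below 9 CPM in every library.

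**Figure D5:**
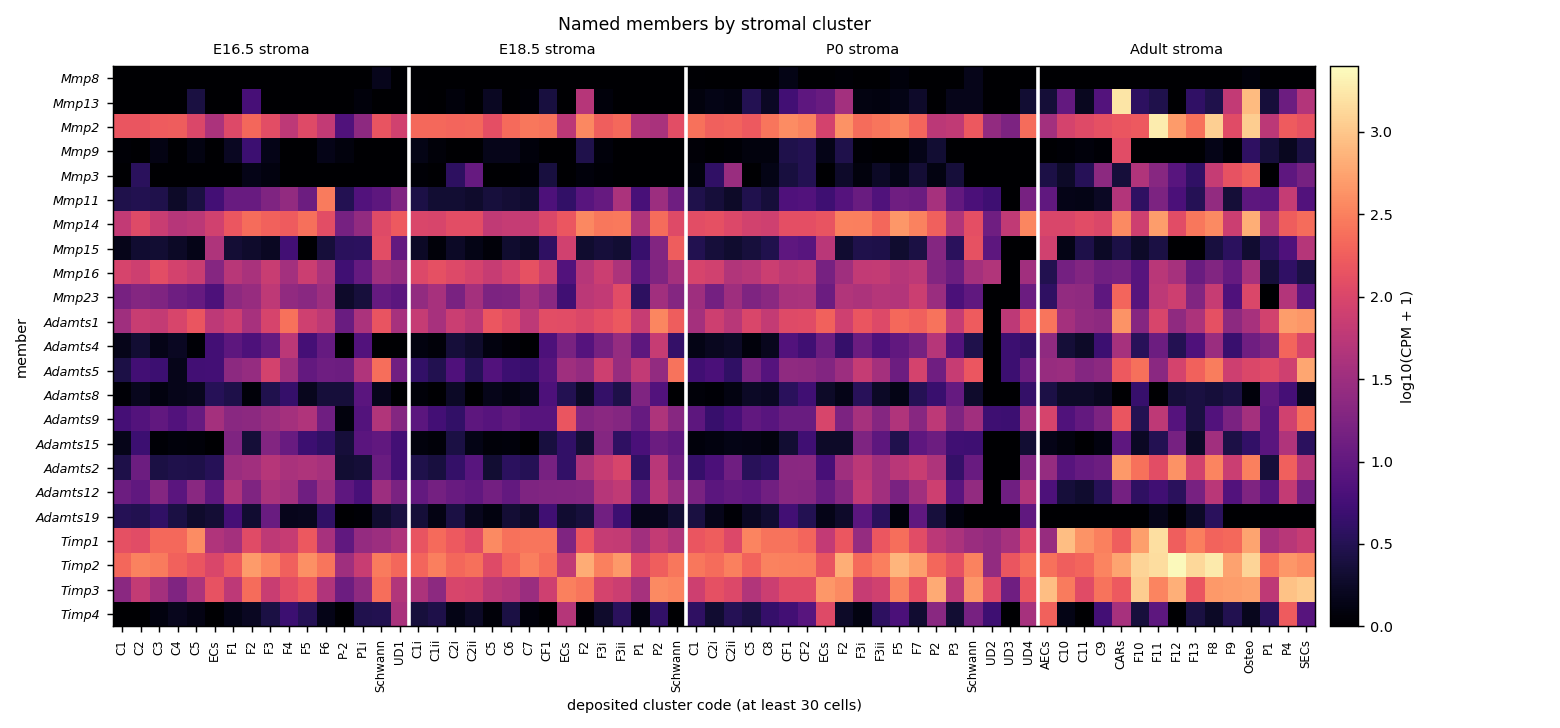
Level of the named members (rows) in the stromal clusters of at least 30 cells (columns, grouped by stage), as log10 of CPM plus 1 by colour. Adult CARs, Osteo, P4, SECs and the adult F clusters hold the highest values of most rows, and Mmp16 is brightest in the C clusters of the fetus.

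The ADAMTS proteoglycanases cut aggrecan and versican, and all 7 were higher in stroma. Adamts1 (chr16:85793827-85803113) was at 78.7, 98.5, 97.1 and 83.4 CPM in stroma, nearly level over stages, and at 4.29, 0.543, 4.46, 2.71 and 0.0338 CPM in HPs, a log2 difference of 5.83 ± 1.04 (edgeR adjusted p = 0.00318). It was highest in the adult clusters P4 (502 CPM, 469–537) and SECs (460 CPM, 430–492), followed by CARs (427 CPM, 404–451). In HPs, Mono2 held 82% of Adamts1 at E18.5 and 86.1% at P0, at 337 CPM (296–383) and 167 CPM (149–187). At E18.5 that cluster had Sall1, Sall3 and Olfml3, genes known from microglia, among its leading genes. Adamts4 (chr1:171250421-171260637) was at 4.74, 4.56, 4.76 and 15.2 CPM in stroma and at most 0.0716 CPM in HPs, a log2 difference of 8.03 ± 0.68 (edgeR adjusted p = 0.000135). It was highest in adult P4, at 202 CPM, which held 24.2% of the adult UMIs, while F8, at 29.1 CPM, held 30.3%.

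Adamts5 (chr16:85856173-85901828), the neighbour of Adamts1 on chromosome 16, was at 20.9, 19.1, 28.7 and 127 CPM in stroma and at 9.16, 2.94, 0.231, 0.102 and 0.22 CPM in HPs, a log2 difference of 6.70 ± 1.47 (edgeR adjusted p = 0.00757). It was highest in SECs, at 578 CPM, which held 9.2% of the adult UMIs, while F8, at 299 CPM, held 37.3%. Adamts9 (chr6:92772699-92943492) was at 13.6, 12.1, 15.6 and 25.6 CPM in stroma and at 12.6, 5.47, 1.94, 2.18 and 0.101 CPM in HPs. The first E16.5 HP library lay above E18.5 stroma, so the groups overlapped, and the log2 difference of 3.09 ± 1.08 passed narrowly (edgeR adjusted p = 0.0433). It was lost under 8 alternatives, for example without P0 stroma (adjusted p = 0.12). Its HP transcripts were mostly in mast cell clusters. At E16.5, Mast1 and Mast2i held 31.2% and 32.4% of them in the first library and 49% and 29.2% in the second. Mast3 held 84.9% at P0, at 60.2 CPM (52.8–68.4), and 91.3% at E18.5, at 27.4 CPM. Mast cell genes were at their highest at E16.5, where 6 of them summed to 36163 and 26356 CPM, against 382 CPM in adult HPs.

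The remaining proteoglycanases were low. Adamts8 (chr9:30942562-30963838) was level over stages, at 1.43, 1.47, 1.52 and 1.4 CPM, with 2 UMIs in all HP libraries, a pooled ratio of 265-fold (73.1–2192; edgeR adjusted p = 0.000769). It was highest in the E18.5 cluster P1, at 16.9 CPM, which was led by Myod1 and Myog of the skeletal muscle lineage. Adamts15 (chr9:30899155-30922452) was at 4.78, 2.81, 3.09 and 7.5 CPM in stroma, a log2 difference of 7.96 ± 1.01 (edgeR adjusted p = 0.000754) that ran from 5.52 to 11.69 over the alternatives, and was highest in adult P4 (43.8 CPM). Of the adult Adamts15 UMIs P4 held 10.6%, while F8, at 33.3 CPM, held 70.2%. Adamts20 was highest in P0 Schwann cells (43.7 CPM).

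The procollagen N-proteinases, which trim fibrillar procollagens, were all 3 higher in stroma. The Adamts3 call was lost without E16.5 stroma, where its log2 difference went from 2.37 to 1.74. Adamts2 (chr11:50602084-50807573) was at 13.6, 16.0, 19.8 and 153 CPM in E16.5, E18.5, P0 and adult stroma and at most 0.118 CPM in HPs, a log2 difference of 9.42 ± 0.51 (edgeR adjusted p = 2.51e-05). In the adult it reached 473 CPM (449–498) in CARs and 417 CPM (391–444) in F12. These clusters held 10.1% and 6.85% of the adult UMIs, while F8, at 335 CPM, held 34.7%. Adamts3 was at 14.7, 15.7, 14.6 and 3.97 CPM in stroma, and Adamts14 at 3.42, 4.58, 3.37 and 3.12 CPM. Adamts3 was highest in clusters C3 at E16.5 (33.7 CPM) and C1 at P0 (31.2 CPM), and its adult stromal level lay within 1 CPM of P0 and adult HPs, at 3.44 and 3.33 CPM.

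Among the other ADAMTS genes, Adamts12 (chr15:11064790-11349231), a protease reported to cut Comp, was at 18.6, 18.1, 19.8 and 13.9 CPM in stroma and at most 0.141 CPM in HPs, a log2 difference of 8.63 ± 0.54 (edgeR adjusted p = 3.98e-05). Its highest cluster was P2 of P0 stroma, at 76.2 CPM (67.3–85.9), led by Myh11 and Rgs5. Adamts19 was at 2.39, 2.27, 2.3 and 0.435 CPM in stroma and had no UMI in any HP library. That makes it at least 239-fold higher in stroma, against a floor of 3 counts over all HP libraries (edgeR adjusted p = 0.00488). It was highest in E18.5 F3i, at 12.8 CPM. Adamts10, which binds fibrillin, was the member called with the smallest difference: 23.9, 26.0, 22.5 and 21.3 CPM in stroma against 15.9, 12.8, 14.1, 11.5 and 10.7 CPM in HPs, a log2 difference of 0.93 ± 0.17 (edgeR adjusted p = 0.00326). Adamts10 was the largest ADAMTS gene by counts in HPs, with 33.3% to 61.3% of the family's counts. Adamts6, Adamts7, Adamts16, Adamts17 and Adamts18 had log2 differences between 2.18 and 7.04, and the 5 ADAMTS-like genes between 3.08 and 7.36. Mmp24 and Adamts13, not tested, were at most at 0.118 and 0.507 CPM in a library. Timp2, Adamts17, Adamtsl1 and Adamtsl3 overlap another annotated gene on the same strand, and how the counting split such reads is uncertain.

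The 4 stromal libraries were then compared between successive stages, by ratio and without a test since each stage was 1 library. A gene was called where the ratio passed 4-fold with at least 50 counts in the higher library. From E16.5 to E18.5, 1 of 38 members with enough counts was higher, where 0.2% of all genes were, and none was lower (0.752% of all genes). That was Mmp13, and the call rested on the single E18.5 cell given above. From E18.5 to P0 none of 39 members was higher (0.473% of all genes) or lower (0.0132% of all genes). From P0 to the adult 7 of 39 were higher (6.3% of all genes) and 2 were lower (4.56% of all genes). At that step 61.5% of these members and 59.6% of all genes had a ratio over 1. Ratios used library totals without edgeR's scaling factors (TMM), which were 0.921 for P0 and 1.04 for adult stroma. Calls near 4-fold therefore depend on the denominator, and no other denominator was run for them.

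From P0 to the adult Mmp13 was 36.0-fold higher (33.3–39.1), Mmp3 22.9-fold (20.7–25.3), Adamts18 7.98-fold (6.49–9.87), Adamts2 7.72-fold (7.45–8.0), Mmp19 7.01-fold (6.07–8.13) and Adamts5 4.43-fold (4.29–4.57). Mmp9 was 12.8-fold higher (9.79–16.9) with the 1 CARs cell and was not called without it. For Mmp3, 120 of the 431 UMIs of P0 stroma were in 1 C2ii cell. Without the highest cell of each library Mmp3 was at 1.6 CPM in P0 and 48.8 CPM in adult stroma, and was still called. Timp3 lay just inside the limit, at 3.9-fold (3.84–3.96). Adamts19 was 5.29-fold lower in the adult (3.82–7.51) and Adamts20 5.99-fold lower (4.12–9.0), with Adamts3 and Mmp16 just inside, at 3.68-fold and 3.66-fold lower. The adult library differed from the P0 library in its cells as well: 9 osteoblast-lineage genes summed to 4408 CPM at P0 and 13510 CPM in the adult, 6 fibroblast genes to 5875 and 16571 CPM, 6 CAR genes to 163 and 1201 CPM, and 6 endothelial genes to 54.3 and 234 CPM. Their part in the differences was not tested, and the bones sampled cannot be told apart from the stage.

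Of the 39 members with at least 50 counts in a stromal library, 22 were highest in the adult (56.4%), where 46.3% of all 15656 such genes were. At E16.5, E18.5 and P0 the shares were 10.3%, 12.8% and 20.5% of members, beside 28.9%, 13.6% and 11.1% of all such genes. For 21 members, Mmp12 and Mmp27 with under 50 counts among them, the adult interval lay apart from that of the next library. The share of all genes with intervals apart was not computed, so these counts have no background. Mmp9 was among the 21 with 332 of its 391 adult UMIs in 1 cell. Without that cell adult stroma was at 0.642 CPM, against 0.428 CPM (0.317–0.564) in E16.5 stroma. Mmp11, Adamts7 and Adamtsl1 were highest at E16.5 with an interval apart from the next, Mmp16, Adamts10 and Adamts14 at E18.5, and Adamtsl2, Adamtsl3 and Adamtsl4 at P0. For the other 15 members the highest interval overlapped the next, Adamts1, Adamts3 and Adamts12 among them.

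Across the 65 stromal clusters of at least 30 cells, which share libraries and depth, the levels of some proteases followed each other. The rank correlation (Spearman's rho, given as a description) was 0.79 between Mmp14 and Adamts2, 0.76 between Mmp11 and Adamts15, 0.74 between Adamts2 and Timp2 and 0.67 between Mmp2 and Timp2. Mmp16 ran against Adamts5, at -0.59. Of the chromosome 9 neighbours whose promoters are shown above, Mmp13 and Mmp3 had a rho of 0.57, and adult Osteo, where Mmp3 was highest, came next after CARs for Mmp13. Mmp8, near 0 in stroma, had a rho of 0.17 with Mmp13 and 0.06 with Mmp3. Mmp14 and Adamts2, on different chromosomes, were higher, at 0.79.

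Other genes of the same pathway were counted from a fixed list. Of 19 regulators, which include activators, clearance receptors and further inhibitors, 16 were higher in stroma and none higher in HPs by edgeR's test, beside 32% and 25.8% of all genes tested; Cd44, Papln and Plau did not pass. Reck, a membrane inhibitor of MMPs, had a log2 difference of 5.00 ± 0.28 and Furin, the convertase that activates membrane-type MMPs and ADAMTS proteases, one of 1.29 ± 0.36. Of 15 substrates, 14 were higher in stroma and Bcan did not pass. Of the 7 sheddases of the related ADAM family, Adam9, Adam12 and Adam19 were higher in stroma, Adam8 and Adam10 higher in HPs, and Adam15 and Adam17 not called, shares near those over all genes.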

How the data were processed

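Raw UMI counts per gene and cell were deposited by the authors for CD45+ Lineage- Kit+ cells (5 HP libraries) and CD45- Ter119- cells (4 stromal libraries). Per the paper's methods, 10X 3' libraries were aligned and counted with CellRanger on mm10, genes were kept if found in at least 30 cells, and cells were filtered on UMIs, genes and mitochondrial share. The submitters' processing notes name Cell Ranger 3.1.0, R 4.0 and Seurat 3.1.5. Stage, compartment and cluster code of each cell came from the deposited cell table, and the antibody counts were not used here. Cells were used as deposited, with no further doublet removal. Totals ran from 13974733 to 194892476 UMIs a library.

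Counts were summed per library and tested with edgeR 4.0.16 in R 4.3.3 (TMM, filterByExpr, quasi-likelihood F test, stage and compartment as terms, 4 residual degrees of freedom, Benjamini-Hochberg over 18407 genes, threshold 0.05). The standard error was the log2 difference divided by the square root of F. On simulated data with 18064 genes the test found 73% of 4-fold and 98% of 16-fold changes, and called 0.0616% of unchanged genes. Only 100 genes were changed for each fold, balanced in direction and all above a minimum mean count, with negative binomial noise. So the simulation does not check members with few HP counts, or the scaling where many genes differ as here. Stages were compared by ratio, with exact conditional intervals. Intervals of levels were exact Poisson and those of shares exact binomial, at 95%, for counting error only. Clusters are the authors' codes, and since these genes helped to make them, levels by cluster carry no test; leading genes of a cluster were the 10 highest by fold over the rest of its library. Alternatives were DESeq2 1.42.0, no filter, no stage term, each library left out, the E16.5 HP pair summed, cells of at least 1000 UMIs, thinning to 1000 UMIs, the mean over cells, another denominator, other minimums of cells and counts, and, chosen after seeing the data, leaving out shared barcodes, HP clusters led by stromal genes, or the single highest cell. Other steps used Python 3.11.15, numpy 2.4.6, scipy 1.17.1, pandas 2.3.3 and matplotlib 3.10.9.

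Named with values were all TIMP genes, members reaching 100 CPM in a cluster of at least 30 cells, members called higher in HPs, and the 10 largest called differences toward stroma, 23 in all; other members are named where a count or a role needed them, after their values were seen. The members and lists were chosen with earlier results of these data known. Coordinates are GRCm38 (GENCODE vM21).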

Additional observations from a re-analysis of the deposited data

Results flagged for a closer look

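Mmp9 lay below the HP library or libraries of its stage in E16.5, E18.5 and P0 stroma (0.428, 0.409 and 0.334 CPM) and above that of its stage in the adult (4.26 CPM). The difference between stages was not tested, and 332 of the 391 adult UMIs were in 1 cell, without which adult stroma, at 0.642 CPM, was below adult HPs as well (1.01 CPM). Mmp19 stood out in the same way, below at E18.5 and P0 (1.46 and 1.24 CPM) and above in the adult (8.71 CPM), not tested. Mmp12 was below at E18.5 (0.0178 CPM) and above in the adult (0.283 CPM), and Mmp25 was above at P0 (0.144 CPM) and below in the adult (0.0544 CPM), each on under 50 UMIs a library and not tested.

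Clusters of fewer than 30 cells, which entered no comparison by cluster, held some high levels. In UD2 of the first E16.5 HP library (29 cells) Mmp9 was at 357 CPM, Mmp14 at 161 CPM and Adamts5 at 147 CPM; the cluster was led by Ptprz1, Cldn5 and Sox9 at a median of 902 UMIs a cell. These levels rested on single deep cells: 64 of the 80 Mmp9 UMIs and 22 of the 36 Mmp14 UMIs were each in 1 cell of 40133 UMIs, and 27 of the 33 Adamts5 UMIs in 1 cell of 43506 UMIs. In Mono1iv of E18.5 HPs (28 cells) Timp2 was at 984 CPM. In Neu2 of P0 HPs (28 cells) Mmp8 was at 1854 CPM, Mmp9 at 835 CPM and Timp2 at 412 CPM.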

How the results depend on the processing

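The count of members higher in stroma was 35 and ran from 33 to 35 over all alternatives. The count higher in HPs was 1, but 2 after thinning to 1000 UMIs and 3 with DESeq2, and it ran from 1 to 3 when a library was left out, with 3 both without adult HPs and without adult stroma. The added genes were Mmp9 under all 4 of these and Mmp27 under all but the thinning. Adamts9 was lost under 8 alternatives and Adamts3 without E16.5 stroma (adjusted p = 0.0522). Mmp19 and Mmp25, not called under any alternative run, changed sign. Mmp19 (-0.22) was at 0.52 without the stage term, 0.54 thinned, 0.065 with the E16.5 HP pair summed and -0.80 to 0.24 with a library left out. Mmp25 (0.03) was at -1.08 without the stage term, -0.21 without shared barcodes, -0.076 with the pair summed and -0.96 to 1.17 with a library left out. Of the 36 called members, 24 kept their direction but moved by over 1.5-fold in the fitted difference under at least 1 alternative, 13 of them without E16.5 stroma, 13 after thinning, 10 without adult HPs and 9 without adult stroma. On the log2 scale Adamts15 (7.96) ran from 5.52 thinned to 11.69 without the HP clusters led by stromal genes, Adamts5 (6.70) from 4.43 without the stage term to 7.94 without E16.5 stroma, Mmp13 (6.78) from 5.41 without adult stroma to 9.04 without the stage term, and Timp4 (6.76) from 5.68 without adult HPs to 8.61 without those clusters. The causes of these changes were not tested.

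Without the highest cell of each member, 0 members rose over 4-fold from E16.5 to E18.5, 1 (Mmp13) from E18.5 to P0, and 6 from P0 to the adult. The family sums in stroma kept the adult highest under each alternative run for MMP, ADAMTS and TIMP, and P0 highest for ADAMTS-like. As the mean over cells, in order of stage, MMP was at 350, 510, 530 and 1009 CPM, ADAMTS at 230, 252, 271 and 603, ADAMTS-like at 39.7, 50.6, 64.7 and 63.9, and TIMP at 442, 550, 648 and 1854. With mitochondrial and ribosomal protein genes out of the denominator, MMP was at 480, 666, 705 and 1065 CPM, ADAMTS at 331, 330, 362 and 564, ADAMTS-like at 48.8, 56.9, 78.9 and 64.1, and TIMP at 646, 740, 898 and 2148. Between 20 and 23 of the 23 named members kept their leading cluster. The level in the leading cluster left its Poisson interval in 16 cases over these alternatives. As the mean over cells, for example, Mmp13 in CARs was at 1302 CPM (1661 from summed counts). In the same way Timp1 in F11 was at 1246 CPM (1507) and Timp4 in AECs at 305 CPM (187).

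No paired analysis was possible because the labels give replicate numbers to the E16.5 HP libraries alone. This concerns pairing by number, since stage itself was a block in the test, and without that term Adamts9 was lost (adjusted p = 0.0703). Depth limits members near 0 in HPs, and with 1 library at most stages neither stage nor cluster levels have a replicate check.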

Other observations

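In HPs, some members were found in erythroid, megakaryocyte, basophil, monocyte and neutrophil clusters. Adamts3, a procollagen N-proteinase, was highest in erythroid and megakaryocyte progenitor clusters, at 7.17 CPM (5.54–9.14) in EryP/MegP at E18.5, 7.88 CPM (6.58–9.36) in MegP1 at P0 and 8.51 CPM (5.89–11.9) in MegP2 of the adult. Adamtsl5 was in the same clusters, which held 63% of its E18.5 counts, 46.2% of its P0 counts and 43.6% of its adult counts. Adamtsl1 was in basophil-coded clusters, at 25.8 CPM (19–34.2) in Bas1 at E18.5, which held 47.1% of it, and 53.6% of it was in Bas2 at P0. Mmp19 was in monocyte-coded clusters, at 34.2 CPM (27.3–42.3) in Mono1i at E18.5. In adult HPs 70.1% of Mmp14 was in the erythroid progenitor cluster EryP2, at 19.6 CPM (17.3–22.2). All 44 Mmp25 UMIs and 78.3% of the 60 Mmp9 UMIs of adult HPs were in Neu3. These are levels within 1 library each, with no test.

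Schwann cell clusters of fetal and P0 stroma held several members. Beside Mmp15, which was also at 83.1 CPM in adult AECs, Mmp17 was at 45.7 CPM (36.8–56.2) at E16.5, 31.8 CPM (21.3–45.7) at E18.5 and 25.6 CPM (19.3–33.3) at P0, and in each of these libraries its next cluster was below 8 CPM. Adamts17 and Adamts20 were highest in Schwann cells of P0, at 30.7 and 43.7 CPM, and Adamts5 reached 259 CPM (227–294) in those of E18.5, below the 578 CPM of adult SECs and the 299 CPM of adult F8.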
